A study of Mus musculus with 18 samples.

Results

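Cells sense oxygen through hypoxia-inducible factors (HIFs), transcription factors made of an oxygen-regulated alpha subunit and a constant beta subunit. When oxygen is plentiful, prolyl hydroxylases mark the alpha subunit, the von Hippel-Lindau ubiquitin ligase binds the mark and the proteasome destroys the protein. When oxygen is scarce the alpha subunit lasts, enters the nucleus with its partner and turns on genes for blood vessel growth, glycolysis, mitochondrial turnover and collagen processing, and it also turns on some of the hydroxylases that restrain it. In myeloid cells, bacterial lipopolysaccharide (LPS) is known to raise the transcript of HIF-1 alpha through NF-κB, without a fall in oxygen. *Hif1a* and 9 genes of its pathway are described here in mouse dendritic cells (DCs). They were picked by symbol, and each of the 10 was found once among the 62197 rows of the gene table. They comprise 2 genes for alpha subunits (*Hif1a* and *Epas1*), 2 for prolyl hydroxylases (*Egln1* and *Egln3*) and 6 known targets (*Vegfa*, *Ndrg1*, *Bnip3*, *P4ha1*, *Ankrd37* and *Adm*).

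The DCs were grown from mouse bone marrow for 10 days with granulocyte-macrophage colony-stimulating factor and profiled by poly(A) RNA sequencing, with 3 libraries in each of 6 conditions. The cPLA_2_ KO cells came from mice with a floxed *Pla2g4a*, the gene for cytosolic phospholipase A2, deleted by a Cre recombinase under the *Itgax* (CD11c) promoter, and the cPLA_2_ WT cells came from littermate or age-matched controls; marrow was taken at an age of 6–8 weeks. Cells of each genotype were collected unstimulated at the end of culture (nonconfined), after 4 h of confinement at a height of 3 µm (confined), or the day after a pulse of 100 ng ml-1 LPS, which lasted 30 min by the labels and 25 min by the methods. Nonconfined, confined and LPS cells therefore also differed in time after culture, which cannot be told apart from the treatments. Confinement asks how DCs respond to a change of shape, the knockout asks whether that response needs cPLA_2_, and LPS is the microbial comparison.

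The libraries held between 33027230 and 61300021 reads assigned to genes, and levels are given as normalized counts, the reads of a gene divided by the size factor of its library. Changes are log2 fold changes of the normalized count + 1 with their standard error (SE), and a gene was called when the Benjamini-Hochberg adjusted p from limma over all 17875 genes tested was under 0.05. All 10 genes passed the filter for testing, a normalized count of at least 10 in at least 3 libraries, but *Adm* passed it only through the LPS libraries, so that no test of it is read and counts of called genes are out of the other 9. The study calls the replicates biological; whether each came from its own mouse or culture is not given in the sources used here, so p-values measure the spread between these libraries. These are bulk libraries, in which fewer cells of a type and less RNA per cell cannot be told apart.

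*Pla2g4a*, the targeted gene, was lower in the cPLA_2_ KO libraries of 2 treatments but not in those of LPS. In nonconfined cells it stood at 697, 686 and 770 normalized counts in cPLA_2_ WT and at 548, 542 and 533 in cPLA_2_ KO libraries (log2 fold change −0.41, SE 0.06, adjusted p = 0.00019). After confinement it stood at 1369, 1430 and 1321 in cPLA_2_ WT and at 923, 871 and 920 in cPLA_2_ KO libraries (−0.60, SE 0.06, adjusted p = 3.81e-08). Transcript was thus still counted in every cPLA_2_ KO library, and a count over the whole gene does not show whether it holds the deleted part. The LPS libraries labelled cPLA_2_ KO held 1065, 1032 and 1028 and those labelled cPLA_2_ WT 1005, 969 and 967, so that no library labelled knockout was below a library labelled wild type (log2 difference 0.09, 95% confidence interval −0.04 to 0.21).

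The Y-linked *Ddx3y* also set the LPS libraries apart from their labels. It was at most 3.05 normalized counts in the 6 nonconfined and confined cPLA_2_ WT libraries and at least 874 in the 6 of cPLA_2_ KO, so that in these treatments genotype and this difference cannot be told apart. The X-linked *Xist* was present in all 18 libraries. It ranged from 27953 to 33681 normalized counts in nonconfined cPLA_2_ WT and from 12153 to 19081 in nonconfined cPLA_2_ KO libraries. After confinement the ranges overlapped, at 22734 to 33482 and 16980 to 24835. With LPS, *Ddx3y* stood at 1271, 0 and 662 in the libraries labelled cPLA_2_ WT and at 2.12, 1476 and 783 in those labelled cPLA_2_ KO. By chi-square per degree of freedom between read counts, 2 pairs of LPS libraries across the labels were closer than any pair within a label. It was 5.08 between replicate 1 labelled cPLA_2_ KO and replicate 2 labelled cPLA_2_ WT and 6.08 between the replicates numbered 3, against 9.55 to 34.1 within the label cPLA_2_ KO and 11.7 to 42.5 within the label cPLA_2_ WT. By the root mean square log2 difference, which weighs scarce genes more, the closest pair was instead replicates 1 and 3 labelled cPLA_2_ WT (0.598). Across all genes tested, limma called 0 of 17875 (0%) between the LPS labels, with 890 at an unadjusted p under 0.05, and edgeR and DESeq2 on the recovered reads also called 0. The labels of the LPS libraries are therefore given as labels only, their 6 libraries are pooled, and no genotype effect under LPS is read from them. Changes with LPS are set against the nonconfined cells of both genotypes. Their SEs and p-values take the 6 libraries as separate. Whether the pairs close to each other across the labels share a source was not tested. If they do, these SEs and p-values are too small.

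Confinement of cPLA_2_ WT DCs raised the transcripts of the oxygen-regulated factor and of part of its target set. Of the 9 genes, 6 were higher and 0 were lower than in nonconfined cells, while 28.2% of all genes tested were higher and 28.4% lower. *Hif1a*, *Vegfa* and *Ndrg1* rose past a log2 fold change of 1, which 11.4% of all genes did, and *Egln3*, *Bnip3* and *P4ha1* rose by less. In cPLA_2_ KO DCs the same 6 genes were called higher and 0 lower, against 22.8% and 23.4% of all genes, with *Egln3* and *Vegfa* past 1, as were 6.43% of all genes. For the 9 genes the median log2 fold change was 0.67 in wild-type and 0.51 in knockout cells, beside −0.01 and 0.01 over all genes tested. The difference between genotypes was itself tested as an interaction, in which 3 of the 9 rose less in cPLA_2_ KO cells (*Hif1a*, *Vegfa* and *Ndrg1*) and 0 rose more, against 15.6% and 10.2% of all genes. With the same total per library, and with only the compared groups in the fit, 5 were called, *Egln1* and *Egln3* with a positive interaction. With LPS, 8 of the 9 rose and 0 fell, where 37.2% of all genes rose and 34.3% fell, and the 8 passed a log2 fold change of 1, as 15.6% of all genes did. Scaling every library to the same total moved the median of all genes to −0.23 for confinement in cPLA_2_ WT cells and to −0.46 for LPS, and with it the changes of these genes, as *Hif1a* with LPS to 0.65. With confinement in cPLA_2_ WT cells this scaling moved *Bnip3* to 0.45 (adjusted p = 0.039), *P4ha1* to 0.29 (adjusted p = 0.0287) and *Ankrd37* to 0.05.

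**Figure D1:**
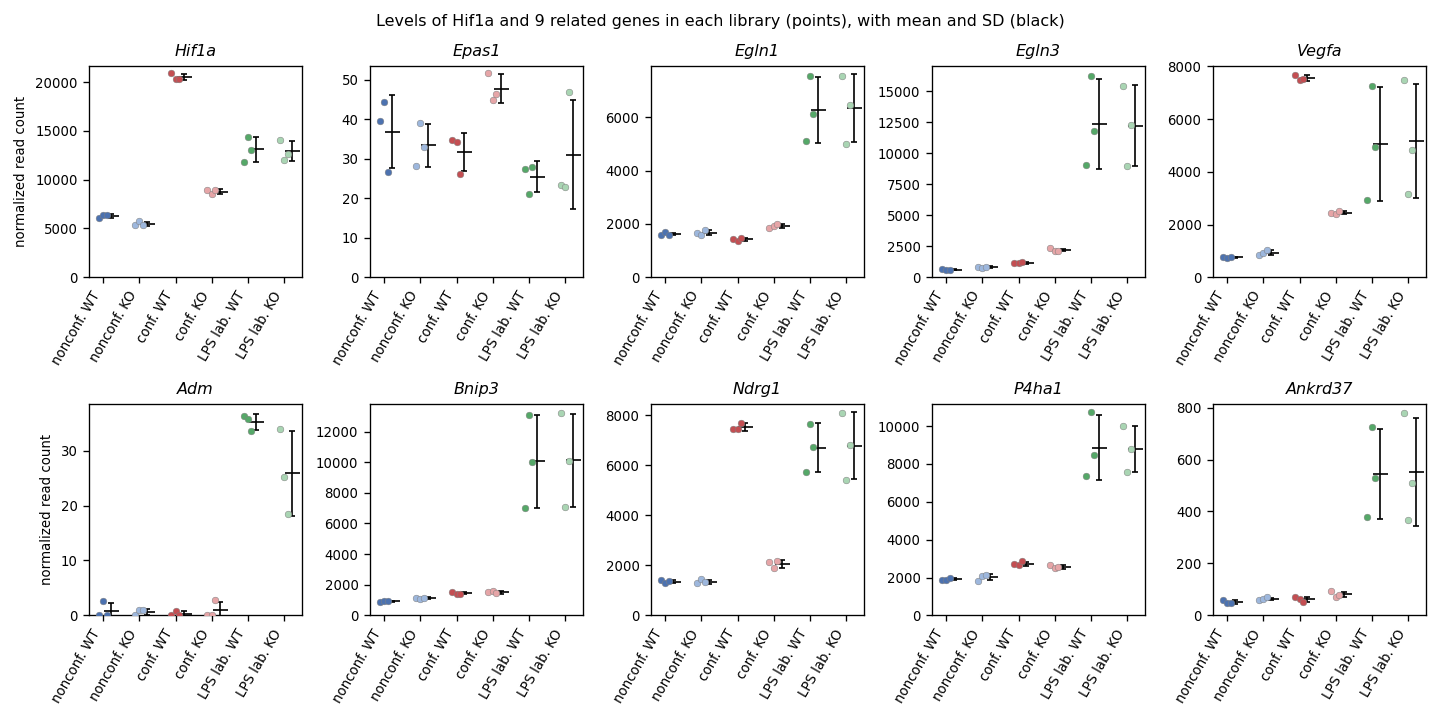
Normalized read counts (y axes, linear, each panel with its own scale) of the 10 genes in the 3 libraries of each condition (points), with mean and SD in black; LPS libraries are shown under their labels. *Hif1a*, *Vegfa* and *Ndrg1* are high in confined cPLA_2_ WT and in LPS libraries, whereas *Egln1*, *Egln3*, *Bnip3*, *P4ha1*, *Ankrd37* and *Adm* are highest in LPS libraries.

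*Hif1a*, which encodes the alpha subunit of HIF-1, was abundant in every condition. Nonconfined cPLA_2_ WT cells held 6092, 6377 and 6395 normalized counts, and confined cPLA_2_ WT cells 20887, 20343 and 20347. In the knockout the nonconfined libraries held 5390, 5720 and 5382 and the confined ones 8939, 8517 and 8903. The 6 LPS libraries ranged from 11810 to 14416 (median 12850) with a mean of 13011 ± 1061 (SD, n = 6). Thus every confined cPLA_2_ WT library stood above every LPS library, every LPS library above every confined cPLA_2_ KO library, and those in turn above all nonconfined ones. No neighbours in this order overlapped, including nonconfined cPLA_2_ WT over cPLA_2_ KO.

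Confinement multiplied *Hif1a* by 3.26 in cPLA_2_ WT DCs (log2 fold change 1.71, SE 0.06, adjusted p = 6.58e-16). In cPLA_2_ KO DCs the factor was 1.60 (0.68, SE 0.06, adjusted p = 7.94e-09). The rise was smaller in the knockout by 1.03 on the log2 scale (interaction −1.03, SE 0.09, adjusted p = 4.03e-09). LPS multiplied it by 2.21 (1.14, SE 0.04, adjusted p = 4.12e-16), and confined cPLA_2_ WT cells exceeded the LPS libraries by 0.66 (SE 0.05, adjusted p = 6.46e-10). Before confinement the knockout was lower by a small margin (−0.19, SE 0.06, adjusted p = 0.0487). That call, 1 of 9 genes where 4.11% of all genes were lower and 4.78% higher, was lost without any one of 5 of the 6 nonconfined libraries (adjusted p 0.0709 to 0.162; all but replicate 2 of cPLA_2_ KO). After confinement the knockout was lower by 1.22 on the log2 scale (−1.22, SE 0.06, adjusted p = 3.24e-13).

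*Epas1*, which encodes the alpha subunit of HIF-2, was scarce. It stood between 21.1 and 51.8 normalized counts over all 18 libraries, with 39.6, 44.3 and 26.5 in nonconfined and 34.8, 34.3 and 26.1 in confined cPLA_2_ WT cells. The confined cPLA_2_ KO libraries, at 51.8, 44.8 and 46.5, were the only group whose range lay clear of its neighbour in the order of means. With the size factors of the deposited table no comparison called it. Its change was −0.19 with confinement in cPLA_2_ WT cells (95% confidence interval −0.81 to 0.43), 0.51 in cPLA_2_ KO cells (−0.11 to 1.13) and −0.33 with LPS (−0.77 to 0.10). Without replicate 3 of the LPS libraries labelled cPLA_2_ KO, which held 46.9 normalized counts beside 21.1 to 28.0 in the other 5, its change with LPS was −0.50 with an adjusted p of 0.0305. With the same total per library the LPS change was −0.81 (adjusted p = 0.00138) and the difference of the knockout from wild type after confinement was 0.73 (adjusted p = 0.0448), both called. Per kilobase of exon, the level of *Hif1a* was 754 ± 20.4 and that of *Epas1* 6.52 ± 1.63 normalized counts in nonconfined cPLA_2_ WT cells (SD, n = 3).

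The prolyl hydroxylase genes went with LPS far more than with confinement. *Egln1*, which encodes PHD2, the main hydroxylase of HIF-1 alpha in most cells, stood at 1602, 1684 and 1585 normalized counts in nonconfined and at 1442, 1345 and 1476 in confined cPLA_2_ WT DCs. The cPLA_2_ KO libraries held 1670, 1591 and 1763 before and 1849, 1933 and 2009 after confinement. All 6 LPS libraries lay far above these, from 5002 to 7550 with a median of 6292. The confined cPLA_2_ WT libraries were thus the lowest of all 18 and did not overlap any other group, yet their difference from nonconfined cells was not called (−0.19, 95% confidence interval −0.44 to 0.05, adjusted p = 0.171), and neither was the change in cPLA_2_ KO cells (0.21, −0.04 to 0.45, adjusted p = 0.163). The former was called lower with the same total per library (−0.42, adjusted p = 0.00688) and with only the compared groups in the fit (adjusted p = 0.00737), and the latter was called higher with only the compared groups (adjusted p = 0.0171). Between the confined groups *Egln1* was higher in the knockout (0.44, SE 0.12, adjusted p = 0.00463). LPS multiplied it by 3.77 (1.91, SE 0.08, adjusted p = 5.68e-15).

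*Egln3*, which encodes PHD3, a hydroxylase that is itself a strong HIF target, was the member most changed by LPS among those abundant in every condition. It stood at 692, 572 and 587 normalized counts in nonconfined cPLA_2_ WT cells and at 1133, 1140 and 1251 after confinement. Knockout cells held 856, 758 and 854 before and 2333, 2150 and 2135 after confinement. In the LPS libraries it ranged from 8956 to 16266 (median 12055) with a mean of 12304 ± 3088 (SD, n = 6), and the 5 groups (LPS labels pooled) did not overlap in any step of their order. Confinement multiplied it by 1.91 in cPLA_2_ WT DCs (0.93, SE 0.16, adjusted p = 4.53e-05) and by 2.68 in the knockout (1.42, SE 0.16, adjusted p = 3.15e-07), and LPS multiplied it by 16.8 (4.07, SE 0.11, adjusted p = 2.87e-18). After confinement *Egln3* was higher in cPLA_2_ KO than in confined cPLA_2_ WT cells (0.91, SE 0.16, adjusted p = 0.000119), opposite to *Hif1a*. Before confinement this difference was 0.42 (SE 0.16, adjusted p = 0.123), and it was called with only the compared groups in the fit (adjusted p = 0.0314). The interaction was positive but not called for either hydroxylase (*Egln1* 0.40, SE 0.17, adjusted p = 0.0852, and *Egln3* 0.49, SE 0.23, adjusted p = 0.128). It was called for both with every library scaled to the same total (0.59, adjusted p = 0.0135, and 0.68, adjusted p = 0.0332) and with only the 4 groups compared in the fit (adjusted p = 0.000735 and 0.00171).

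*Vegfa* and *Ndrg1*, as *Hif1a*, were higher in confined cPLA_2_ WT than in confined cPLA_2_ KO libraries, and both of these were above nonconfined ones. *Vegfa*, which encodes the growth factor that drives new vessels, stood at 768, 733 and 771 normalized counts in nonconfined and at 7678, 7477 and 7520 in confined cPLA_2_ WT cells. The knockout held 834, 930 and 1035 before and 2445, 2411 and 2508 after confinement. Before confinement its libraries lay above those of the wild type, unlike for *Hif1a*, though the difference was not called (0.29, SE 0.24). Confined cPLA_2_ KO libraries thus lay below confined cPLA_2_ WT ones with no overlap (−1.62, SE 0.24, adjusted p = 1.1e-05). Confinement multiplied *Vegfa* by 9.97 in cPLA_2_ WT DCs (3.32, SE 0.24, adjusted p = 1.12e-10) and by 2.64 in the knockout (1.40, SE 0.24, adjusted p = 5.55e-05), a difference of −1.92 (interaction, SE 0.34, adjusted p = 0.000167). The LPS libraries spread widely, at 2937, 7271 and 4941 under the label cPLA_2_ WT and 7496, 3176 and 4835 under cPLA_2_ KO. Their mean rise was 5.71-fold (2.51, SE 0.17, adjusted p = 1.21e-11), and their upper end reached the range of confined cPLA_2_ WT cells. Confined cPLA_2_ WT cells were higher than LPS cells by 0.66 (SE 0.21, adjusted p = 0.0107), which was not called with only the compared groups in the fit (adjusted p = 0.0542, the highest of the alternatives, with 9.31e-07 the lowest).

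*Ndrg1*, a stress-responsive gene long used as a marker of low oxygen, stood at 1425, 1275 and 1356 normalized counts in nonconfined and at 7451, 7429 and 7697 in confined cPLA_2_ WT cells. In the knockout it stood at 1281, 1440 and 1315 before and at 2141, 1879 and 2159 after confinement. The nonconfined genotypes overlapped (−0.01, 95% confidence interval −0.23 to 0.22), while the confined ones lay far apart (−1.87, SE 0.11, adjusted p = 4.64e-12). Confinement multiplied *Ndrg1* by 5.57 in cPLA_2_ WT DCs (2.48, SE 0.11, adjusted p = 2.16e-14) and by 1.53 in the knockout (0.61, SE 0.11, adjusted p = 7.71e-05), with an interaction of −1.86 (SE 0.15, adjusted p = 3.07e-09). LPS libraries ranged from 5425 to 8086 (median 6778), a 4.95-fold rise (2.31, SE 0.08, adjusted p = 4.3e-17), and overlapped the confined cPLA_2_ WT libraries. The difference between these was 0.17 (SE 0.09, adjusted p = 0.124), and it was called without replicate 1 labelled cPLA_2_ KO (0.24, adjusted p = 0.0149) or without replicate 2 labelled cPLA_2_ WT (0.22, adjusted p = 0.0386), the LPS libraries with the highest *Ndrg1*. It was also called with 2 other scalings and with edgeR (0.23 to 0.46, adjusted p 0.000468 to 0.0359).

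*Bnip3* and *P4ha1*, in contrast, moved little with confinement and strongly with LPS. *Bnip3*, whose product directs mitochondria to autophagy, stood at 869, 922 and 943 normalized counts in nonconfined and 1549, 1402 and 1410 in confined cPLA_2_ WT cells. The knockout held 1163, 1057 and 1131 before and 1510, 1608 and 1429 after confinement. In the LPS libraries it ranged from 7038 to 13191 with a median of 10049.5. The confined genotypes overlapped, and each stood above its nonconfined group (0.67, SE 0.17, adjusted p = 0.00207 in cPLA_2_ WT and 0.44, SE 0.17, adjusted p = 0.0414 in cPLA_2_ KO DCs). The call in cPLA_2_ KO DCs was lost on leaving out any one of the 6 libraries compared (adjusted p 0.0577 to 0.119) and without a filter, with the same total per library, with edgeR and with DESeq2 (adjusted p 0.0604 to 0.0771). The LPS rise was 9.69-fold (3.28, SE 0.12, adjusted p = 3.54e-16).

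*P4ha1*, a subunit of the enzyme that hydroxylates collagen, stood at 1888, 1883 and 1980 normalized counts in nonconfined and 2692, 2660 and 2852 in confined cPLA_2_ WT cells. Knockout libraries held 1840, 2092 and 2121 before and 2668, 2487 and 2529 after confinement, and LPS libraries held 7369 to 10724 with a median of 8617. The genotypes overlapped both before and after confinement. Confinement multiplied *P4ha1* by 1.43 in cPLA_2_ WT DCs (0.51, SE 0.10, adjusted p = 0.00018) and by 1.27 in the knockout (0.35, SE 0.10, adjusted p = 0.00775). LPS multiplied it by 4.44 (2.15, SE 0.07, adjusted p = 5.14e-17). For neither *Bnip3* nor *P4ha1* was the interaction called (−0.23, 95% confidence interval −0.74 to 0.27, and −0.17, −0.46 to 0.13).

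*Ankrd37*, an ankyrin repeat gene known as a direct HIF-1 target, was not called with confinement in either genotype. *Ankrd37* stood at 61.0, 46.9 and 46.2 normalized counts in nonconfined and 70.5, 64.3 and 52.1 in confined cPLA_2_ WT cells. The knockout libraries held 59.5, 62.4 and 68.9 before and 92.8, 72.5 and 77.5 after confinement. Its change was 0.28 (95% confidence interval −0.22 to 0.77) in cPLA_2_ WT and 0.34 (−0.16 to 0.83) in cPLA_2_ KO DCs, so an increase of the size seen for *Vegfa* or *Ndrg1* in cPLA_2_ WT cells lies outside the interval. In the LPS libraries it ranged from 368 to 778 (median 519.5), a 9.11-fold rise (3.19, SE 0.17, adjusted p = 1.71e-13).

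*Adm*, which encodes the vasodilator peptide adrenomedullin, was at or near 0 outside LPS, at 0 to 2.73 normalized counts in the 12 nonconfined and confined libraries. The LPS libraries held 36.3, 35.7 and 33.6 under the label cPLA_2_ WT and 33.9, 25.2 and 18.5 under cPLA_2_ KO. Every LPS library thus exceeded every other one. Since *Adm* entered the test only through these libraries, no test of this difference or of its change with confinement is read. The log2 difference was 4.32, and 2.62 with a pseudocount of 5 in place of 1, so no fold is given for it.

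**Figure D2:**
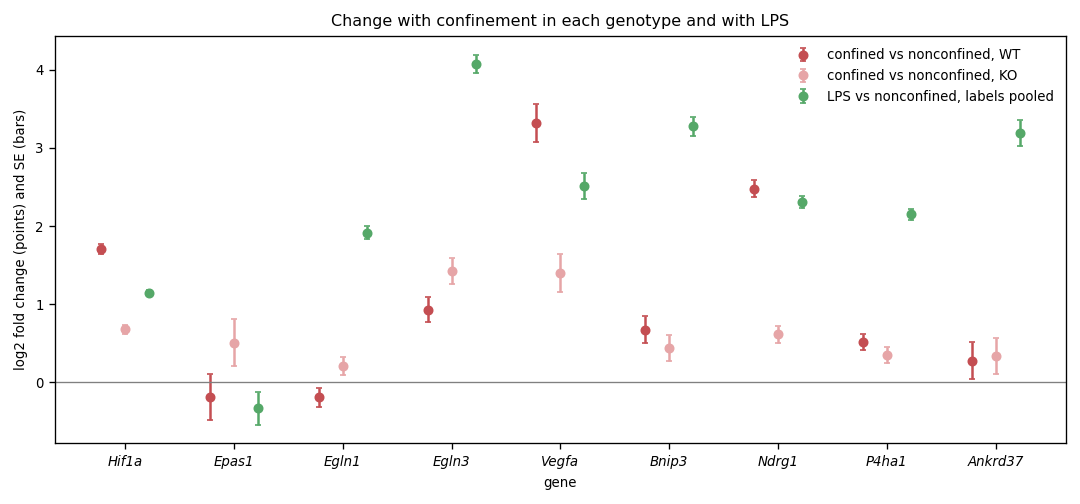
Log2 fold change (y axis, points) with its SE (bars) of each gene but *Adm* (x axis) for confinement in cPLA_2_ WT (dark red) and cPLA_2_ KO DCs (light red) and for LPS with its labels pooled (green). Confinement is set against nonconfined cells of the same genotype, and LPS against the nonconfined cells of both genotypes. *Hif1a* and *Vegfa* have their largest change in confined cPLA_2_ WT cells, *Ndrg1* changes by 2.48 there and 2.31 with LPS, and *Egln1*, *Egln3*, *Bnip3*, *P4ha1* and *Ankrd37* have their largest change with LPS.

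Set side by side, confined cPLA_2_ WT cells and LPS cells differed by less than a factor of 2 in mean *Hif1a*, *Vegfa* and *Ndrg1* and by more in 5 of the others, *Adm* left aside. Of these 9 genes, 2 were higher in confined cPLA_2_ WT cells than with LPS (*Hif1a* and *Vegfa*) and 5 were lower, against 24.5% and 29.8% of all genes. The 5 lower ones were *Egln1* (−2.13, SE 0.10), *Egln3* (−3.35, SE 0.14), *Bnip3* (−2.75, SE 0.15), *P4ha1* (−1.68, SE 0.09) and *Ankrd37* (−3.07, SE 0.20), with adjusted p from 2.02e-14 to 4.12e-11. Between the confined genotypes 3 of the 9 were lower in the knockout (*Hif1a*, *Vegfa* and *Ndrg1*) and 2 were higher (*Egln1* and *Egln3*), against 20.6% and 18.8% of all genes. As a description over the 18 libraries, Pearson's r of log2 levels was 0.94 to 0.96 among *Hif1a*, *Vegfa* and *Ndrg1*, and 0.96 to 0.99 among *Egln1*, *Egln3*, *Bnip3*, *P4ha1* and *Ankrd37*. Between the sets it ranged from 0.32 (*Hif1a* and *Egln1*) to 0.77 (*Ndrg1* and *P4ha1*). These libraries come from 6 conditions and share them, so they are not independent points.

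Within LPS, 8 of the 10 genes (all but *Epas1* and *Adm*) put the libraries in the same order across the labels. Replicate 1 labelled cPLA_2_ KO and replicate 2 labelled cPLA_2_ WT were the highest pair, the replicates numbered 3 lay between, and replicate 2 labelled cPLA_2_ KO and replicate 1 labelled cPLA_2_ WT were the lowest pair. The ratio of the highest to the lowest library was 2.55 for *Vegfa*, 2.11 for *Ankrd37*, 1.87 for *Bnip3*, 1.82 for *Egln3* and 1.22 for *Hif1a*. *Ddx3y* had the reverse order of pairs, with its lowest values, 2.12 and 0, in the pair where these genes were highest. Without those 2 libraries, an alternative chosen after the data were seen, the LPS change was 1.07 for *Hif1a*, 2.20 for *Vegfa*, 3.87 for *Egln3*, 3.06 for *Bnip3* and 2.93 for *Ankrd37*, and 8 of the 9 genes other than *Adm* were called. Confined cPLA_2_ WT cells then exceeded LPS cells by 0.97 for *Vegfa* and by 0.29 for *Ndrg1*, the latter now called (adjusted p = 0.00153).

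**Figure D3:**
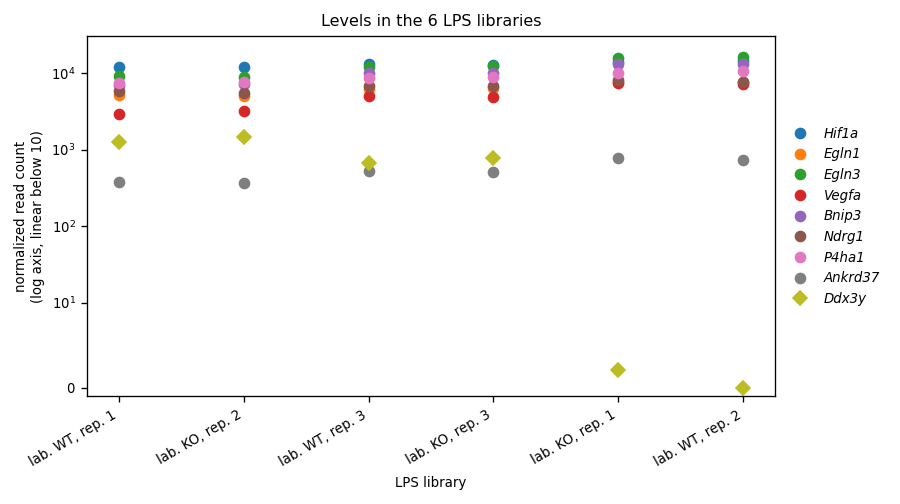
Normalized read counts (y axis, log scale, linear below 10) of 8 of the 10 genes (circles) and of *Ddx3y* (diamonds) in the 6 LPS libraries (x axis), placed in pairs across the labels. The 8 genes are highest in replicate 1 labelled KO and replicate 2 labelled WT, where *Ddx3y* is at 2.12 and 0.

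The machinery that controls HIF, apart from the genes above, moved by less than a factor of 2 for each gene called with confinement or LPS. With the size factors of the deposited table, of 15 genes, all tested, 6 rose and 1 fell with confinement in cPLA_2_ WT, 6 rose and 2 fell in cPLA_2_ KO DCs, and 11 rose and 0 fell with LPS. Of all genes, 28.2% rose and 28.4% fell with confinement in wild-type cells, 22.8% and 23.4% in the knockout, and 37.2% and 34.3% with LPS. *Arnt*, the beta subunit partner, rose by 0.69 (SE 0.07, adjusted p = 1.81e-08) with confinement in cPLA_2_ WT cells. *Siah1a*, a ubiquitin ligase for prolyl hydroxylases, rose by 0.44 (SE 0.07) and *Cul2*, the scaffold of the von Hippel-Lindau ligase, by 0.32 (SE 0.05). *Cited2*, which competes with HIF-1 alpha for its coactivators, fell from 6297 ± 135 to 3597 ± 141 normalized counts (SD, n = 3; −0.81, SE 0.07, adjusted p = 1.87e-09). In cPLA_2_ KO cells confinement moved these genes in the same directions. The changes there were 0.64 (SE 0.07) for *Arnt*, 0.30 (SE 0.07) for *Siah1a*, 0.17 (SE 0.05) for *Cul2* and −0.80 (SE 0.07) for *Cited2*. The interaction was not called for any of them. Among called genes, the largest increases with LPS were those of the coactivator *Crebbp* (0.66, SE 0.09), the ligase subunit *Eloc* (0.62, SE 0.04) and *Hif1an* (0.59, SE 0.04), which encodes the asparagine hydroxylase that blocks coactivator binding. The median of the list was 0.22 with confinement in cPLA_2_ WT cells and 0.43 with LPS. With every library scaled to the same total, 7 of the 15 genes were called with LPS. This scaling moved the median of all genes to −0.23 for confinement in cPLA_2_ WT cells and to −0.46 for LPS, about the size of the list's own medians. How many genes rose or fell under it is not given. The directions and medians of this list, and of the low-oxygen and glycolytic lists below, hold for the size factors of the deposited table. With only the compared groups in the fit 11 were called with confinement in cPLA_2_ WT cells.

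Among 32 other genes known to answer low oxygen, 15 rose and 6 fell with confinement in cPLA_2_ WT, 15 rose and 5 fell in cPLA_2_ KO DCs, and 25 rose and 6 fell with LPS, beside the shares of all genes of 28.2% and 28.4%, 22.8% and 23.4%, and 37.2% and 34.3%. Their median was 0.30, 0.35 and 1.32, respectively. Genes named below had a mean over the 18 libraries of at least 100, which leaves out scarcer ones. Examples, chosen after their values were seen, are *Car12* (−2.71) and *Car9* (−0.88) with confinement in cPLA_2_ WT cells. *Loxl2*, also left out, was at 0 in nonconfined and 70.4 ± 13.4 in confined cPLA_2_ WT libraries (SD, n = 3). It passed the filter only through confined cPLA_2_ WT and LPS libraries, so no fold is given for it, though it is among the 32 genes counted. Among genes that rose with confinement in cPLA_2_ WT cells, *Hilpda*, which encodes a lipid droplet protein, went from 254 ± 7.71 to 7532 ± 161 normalized counts (SD, n = 3). *Hmox1*, which encodes the haem-degrading enzyme, went from 3218 ± 123 to 64814 ± 2384. In confined cPLA_2_ KO cells *Hilpda* stood at 2777 ± 144 and *Hmox1* at 99487 ± 4055. The interaction was called for *Hilpda* (−1.87, SE 0.18) but not for *Hmox1* (0.32, SE 0.17, adjusted p = 0.188). Across the list, the interaction was called lower for 10 genes and higher for 4, against 15.6% and 10.2% of all genes. The largest decreases of named genes in cPLA_2_ WT cells were those of *Tfrc* (−1.41, SE 0.06), *Pdk1* (−0.76, SE 0.17) and *Plod1* (−0.40, SE 0.09). These encode the transferrin receptor, a kinase that restrains the oxidation of pyruvate in mitochondria, and a lysyl hydroxylase.

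LPS raised most of the same list. *P4ha2*, which encodes a related subunit to that of *P4ha1*, reached 317 ± 66.4 normalized counts (SD, n = 6) from 4.75 ± 4.86 in nonconfined cPLA_2_ WT cells (SD, n = 3), and the adenylate kinase gene *Ak4* reached 5876 ± 1567 from 131 ± 15.3. After confinement *Ak4* stood at 351 ± 5.85 in wild-type and 351 ± 62.0 in knockout cells, and its rise was 1.42 in the former (interaction 0.07, SE 0.27, not called) and 5.49 with LPS. *Pdk1* fell with confinement and rose with LPS (1.48, SE 0.12). Among genes with a mean of at least 100, decreases with LPS were largest in *Tfrc* (−1.09, SE 0.04), the lipase inhibitor gene *Angptl4* (−0.66, SE 0.17) and the chemokine receptor gene *Cxcr4* (−0.64, SE 0.03).

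Glycolytic targets of HIF-1 rose with LPS in 16 of 19 cases and fell in 1, against 37.2% and 34.3% of all genes, with a median of 1.31. Confinement raised 10 and lowered 3 in cPLA_2_ WT DCs (median 0.24) and raised 8 and lowered 2 in cPLA_2_ KO DCs (median 0.06), against 28.2% and 28.4% of all genes in the former and 22.8% and 23.4% in the latter. Scaling to the same total moved the median of all genes to −0.23 for confinement in cPLA_2_ WT cells, about the size of this list's median there. The interaction was called lower for 3 of the 19 (*Pfkfb3*, *Hk2* and *Hk1*) and higher for 0, against 15.6% and 10.2% of all genes, with a median of 0.03 beside 0.05 over all genes. In confined cPLA_2_ WT cells the largest increases were in *Pfkfb3*, a regulator of glycolytic flux (1.87, SE 0.05), the hexokinase gene *Hk2* (1.61, SE 0.12) and the lactate transporter gene *Slc16a3* (1.33, SE 0.11). In cPLA_2_ KO cells *Pfkfb3* fell by 0.23 and *Hk2* did not pass the test (−0.03), with interactions of −2.09 (SE 0.08) and −1.64 (SE 0.16), while *Slc16a3* rose by 1.02 (interaction −0.31, SE 0.16, not called). The decreases in cPLA_2_ WT cells were those of the glucose transporter gene *Slc2a3* (−0.79, SE 0.16), *Aldoc* (−0.63, SE 0.09) and *Gpi1* (−0.34, SE 0.10), the latter 2 for glycolytic enzymes. LPS raised *Slc16a3* (6.48-fold, SE of log2 0.08), the phosphofructokinase gene *Pfkl* (2.58, SE 0.07) and the glucose transporter gene *Slc2a1* (2.25, SE 0.08) most, and lowered *Pfkfb4* (−0.66, SE 0.09).

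Markers of other cells moved between the same groups. DC markers were present in all libraries, led by *Cd74* at 189379 to 336000 normalized counts, and none of the 6 was below 10. With confinement 5 of the 6 fell in each genotype, *Flt3* by the most (−1.53, SE 0.21, in wild-type and −2.17, SE 0.21, in knockout cells), while *Cd86* rose in wild-type cells (1.39, SE 0.04; 0.02 in the knockout, not called). The DC sum was 324619 to 349274 in nonconfined and 284181 to 304767 in confined wild-type, 382655 to 407559 and 272554 to 286783 in knockout, and 411148 to 480219 in LPS libraries. The summed level of 8 neutrophil genes, led by *S100a9*, was 238752 to 243828 in nonconfined and 144581 to 154013 in confined cPLA_2_ WT libraries, 332192 to 369490 in nonconfined and 329985 to 346015 in confined cPLA_2_ KO libraries, and 276705 to 312354 with LPS. None of the 8 was below 10 in any library. The summed level of 5 eosinophil genes, led by *Prg2*, went from 30168–30402 to 7825–8313 with confinement in cPLA_2_ WT and from 68944–74115 to 19296–20278 in cPLA_2_ KO DCs, and lay between 24999 and 43143 with LPS. The exception among the 5 was *Siglecf*, not called with confinement (0.04 and 0.23) and lower in the knockout before it (−0.57, SE 0.10), where the other 4 were higher. In LPS the 2 libraries with the highest *Vegfa* had the lowest sums of the eosinophil (24999 and 25150), neutrophil (276705 and 290063), macrophage (14579 and 14709) and DC genes (416648 and 411148) but the highest sums of the mast cell and basophil genes (18665 and 18466). The 6 mast cell and basophil genes summed to 6853–7073 in nonconfined and 14534–15239 in confined cPLA_2_ WT, 10236–10659 and 5471–5615 in cPLA_2_ KO, and 15520–18665 in LPS libraries, led by *Hdc* in confined cPLA_2_ WT and LPS libraries and by *Cpa3* elsewhere. With confinement in cPLA_2_ WT DCs *Hdc* rose (4.07, SE 0.09) and the other 5 of these genes fell, among them *Ms4a2* (−2.21, SE 0.13) and *Cpa3* (−1.37, SE 0.05), so that the sum moved against 5 of its 6 genes. The 6 macrophage genes, led by *Adgre1* or *Mrc1*, summed to 12544–14277 in cPLA_2_ WT libraries without LPS, 14604–18709 in cPLA_2_ KO and 14579–21911 in LPS libraries, with *Cd163* at most 2.37. With LPS *Adgre1* rose (0.79, SE 0.08) and the other 4 tested fell, so that a higher sum ran against them. The 4 erythroid genes were near 0, with a sum of at most 20.4. By the methods, granulocytes and macrophages also arise in this culture and are removed by how firmly they adhere, and the protocol yields over 90% CD11c-positive cells; no such share is given for these libraries. The part of these cells in the levels above was not tested.

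Over the 18 libraries, the genes whose log2 levels followed *Hif1a* most closely, out of 10421 compared, were *Smox* (Pearson's r 0.988), *Chst11* (0.987), *Fosl2* (0.986), *Ist1* (0.986) and *Dennd11* (0.986). Mean *Fosl2*, for example, was 3738 and 25465 normalized counts in nonconfined and confined cPLA_2_ WT cells, 3989 and 8534 in the knockout, and 13091 and 12974 under the LPS labels. Closest to *Vegfa* were *Mxi1* (0.991), *Errfi1* (0.978), *Cytip* (0.978), *Rhoq* (0.977) and *Slc39a4* (0.974). *Mxi1*, a repressor of MYC activity and itself among the low-oxygen targets listed, stood at 2717 and 13930 in nonconfined and confined cPLA_2_ WT cells and at 3184 and 5345 in the knockout. These values describe the pattern over 6 shared conditions and carry no test.

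Compared per kilobase of exon, *Egln3* was the highest of the 10 genes in LPS cells at 4576 ± 1148 normalized counts (SD, n = 6), followed by *Bnip3* (2335 ± 629), *Hif1a* (1559 ± 127) and *P4ha1* (1360 ± 205). In confined cPLA_2_ WT cells the order began with *Hif1a* (2460 ± 37.5, SD, n = 3), *Vegfa* (1758 ± 24.7) and *Ndrg1* (1007 ± 19.9), and *Egln3* stood at 437 ± 24.6. In nonconfined cPLA_2_ WT cells *Hif1a* led at 754 ± 20.4, and the next, *P4ha1*, stood at 296 ± 8.44. These levels divide the normalized count by the union of annotated exons, from 1.629 kb for *Adm* to 8.958 kb for *Egln1*.

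The 10 genes lie on 6 chromosomes of GRCm39 as the gene table places them. *Hif1a* (chr12:73948098-73996319, plus strand) and *Egln3* (chr12:54225768-54250661, minus) share chromosome 12, *Epas1* (chr17:87061127-87140838, plus) and *Vegfa* (chr17:46327922-46343303, minus) share 17, *Egln1* (chr8:125635326-125675993, minus) and *Ankrd37* (chr8:46449947-46452905, minus) share 8, and *Bnip3* (chr7:138492565-138511236, minus) and *Adm* (chr7:110226862-110229027, plus) share 7. *Ndrg1* (chr15:66801167-66841493, minus) and *P4ha1* (chr10:59159118-59209125, plus) stand alone. In the GENCODE annotation 7 of the 10 share exon bases with a gene on the opposite strand, most of all *Ankrd37*, with 61.7% of its exon bases also in exons of *Ufsp2*. The library kits keep strand, but whether the counting used it is not given in the sources used here, so reads of such antisense partners cannot be told apart from those of the genes.

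Promoter sequence was given by RefSeq (GRCm38.p6) for 8 of the 10 genes and was placed on GRCm39 by exact match. The core of the HIF binding site, ACGTG or GCGTG, was looked for on both strands in the 250 bases before the transcription start, counting overlapping matches once; CACGTG, which reads the same on both strands, is also the letters of an E-box. It occurred in 7 of the 8 (*Hif1a*, *Egln1*, *Egln3*, *Adm*, *Bnip3*, *P4ha1* and *Ankrd37*) and in 38.6% of all 32851 promoters of that length. *Bnip3* had 4 matches, *P4ha1* and *Ankrd37* 3 each, *Hif1a*, *Egln1* and *Adm* 2 each, *Egln3* 1, and *Vegfa* none in this window, while 13.5% of all promoters had 2 or more. The sequences below are those of *Vegfa*, *Egln3*, *Bnip3* and *P4ha1*, which were called higher with confinement and with LPS. *Hif1a* was also called higher with both, but its sequence is not shown. Each sequence below runs 5′ to 3′ on the strand of the gene up to the base before its start, with matches in capitals. They cover chr17:46343304-46343553 (*Vegfa*, minus), chr12:54250661-54250910 (*Egln3*, minus), chr7:138511236-138511485 (*Bnip3*, minus) and chr10:59158868-59159117 (*P4ha1*, plus). The RefSeq start lies 6492 bases from the GENCODE 5′ end for *Hif1a*, 5857 for *Ankrd37* and 872 for *Egln1*, and at most 26 for the others. A match describes the letters and not a bound site.
Vegfa: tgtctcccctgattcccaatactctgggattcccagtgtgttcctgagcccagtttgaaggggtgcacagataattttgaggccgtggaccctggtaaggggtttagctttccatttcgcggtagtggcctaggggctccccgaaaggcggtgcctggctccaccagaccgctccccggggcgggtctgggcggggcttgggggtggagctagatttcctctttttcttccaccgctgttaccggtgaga
Egln3: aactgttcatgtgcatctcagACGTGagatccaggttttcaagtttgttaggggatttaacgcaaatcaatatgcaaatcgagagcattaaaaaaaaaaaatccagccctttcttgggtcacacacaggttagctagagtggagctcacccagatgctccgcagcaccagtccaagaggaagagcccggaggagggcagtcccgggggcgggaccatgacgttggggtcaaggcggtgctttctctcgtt
Bnip3: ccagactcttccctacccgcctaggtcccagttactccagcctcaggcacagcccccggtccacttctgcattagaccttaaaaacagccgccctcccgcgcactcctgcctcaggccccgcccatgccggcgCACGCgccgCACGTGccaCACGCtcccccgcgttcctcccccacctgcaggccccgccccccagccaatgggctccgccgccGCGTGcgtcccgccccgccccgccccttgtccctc
P4ha1: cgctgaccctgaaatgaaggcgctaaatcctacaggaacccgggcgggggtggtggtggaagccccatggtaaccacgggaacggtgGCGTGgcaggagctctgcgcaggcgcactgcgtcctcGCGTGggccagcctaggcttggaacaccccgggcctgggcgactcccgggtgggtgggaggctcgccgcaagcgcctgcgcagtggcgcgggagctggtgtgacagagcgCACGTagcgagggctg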

How the data were processed

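Polyadenylated RNA of 18 libraries was sequenced with stranded kits, and the kit of each library is not given. The authors aligned reads with STAR 2.7.5a to mm39 (GRCm39), counted them with featureCounts 1.5.0 over the FAST DB annotation and deposited a signal per gene, the count divided by a DESeq2 size factor, not scaled for gene length. Whole reads were recovered from 100% of values (tolerance 1e-06). Genes with a normalized count of at least 10 in at least 3 libraries were tested with limma 3.58.1 in R 4.3.3 on log2(normalized count + 1), in 1 fit over 18 libraries with a mean per condition and a trend, two-sided, with Benjamini-Hochberg adjustment over 17875 genes, which was tested on simulated data. The protocol text mentions LPS for every sample, and the titles and treatments were followed. Alternatives were other pseudocounts, filters and scalings, edgeR 4.0.16, DESeq2 1.42.0, only the compared groups, a replicate block and each library left out. Beside the 10 genes, genes were named from among the 3 called genes of each list that rose most and the 3 that fell most, for confinement in cPLA_2_ WT cells and for LPS, at a mean of at least 100. The members and lists were chosen with earlier results of these data known.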

Additional observations from a re-analysis of the deposited data

Results flagged for a closer look

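The change with confinement differed between cPLA_2_ WT and cPLA_2_ KO DCs, by the limma interaction over 3 libraries in each of 4 groups, for 3 of 9 genes (*Adm* left aside), all lower, where 15.6% of all genes were lower and 10.2% higher. With the same total per library, and with only the compared groups in the fit, *Egln1* and *Egln3* were also called, with the opposite sign. The interaction was −1.03 on the log2 scale for *Hif1a* (adjusted p = 4.03e-09), −1.92 for *Vegfa* (adjusted p = 0.000167) and −1.86 for *Ndrg1* (adjusted p = 3.07e-09). For each of the 3, every confined cPLA_2_ WT library was above every confined cPLA_2_ KO library. The genotypes also differed in *Ddx3y*. All 8 neutrophil genes had a called interaction of the opposite sign (median 0.69) and were higher in confined cPLA_2_ KO than in confined cPLA_2_ WT cells (median 1.31). Of the 6 DC genes, 4 had a called interaction of the same sign as the 3 results (*Cd86* −1.37, *Zbtb46* −0.42, *H2-Ab1* −0.36 and *Cd74* −0.26; median of the 6 −0.39). Of the 6 mast cell and basophil genes, *Hdc* (−3.58) and *Gata2* (−0.45) had the same sign and *Ms4a2* (0.76) and *Mcpt8* (0.56) the opposite one, and none of the 5 eosinophil and 5 macrophage genes tested was called. The part of these in the 3 results was not tested.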

How the results depend on the processing

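Of the results for single genes other than *Adm*, 1717 kept their side of the threshold, 22 were no longer called and 20 became called. Of the 1717, 1688 kept their sign and 29 changed it, none of them called in either setting. In 1 further case a called value changed sign and was no longer called, *Pla2g4a* with LPS in libraries labelled cPLA_2_ WT, −0.062 (adjusted p = 0.362) with the same total per library. The number of genes called in the interaction of confinement and genotype, 3, became 5 with the same total per library and 5 with only the conditions compared. For KO against WT nonconfined the number called, 1, became 0 with a pseudocount of 0.5, 0 with no filter, 0 with TMM scaling, 0 with edgeR, 0 with the replicate block and 3 with only the conditions compared. Leaving out single libraries gave 0 to 1. The causes were not tested. In 0 of 15 pairs of groups were all correlations between same-numbered replicates above 0.1. They ranged from −0.14 to 0.34, with 0.34, 0.21 and 0.04 between the confined genotypes. *Xist* was highest in replicate 2 and lowest in replicate 1 of each nonconfined and confined group. Whether replicate numbers pair libraries cannot be decided by this cutoff, which a partial pairing could also fail. Values with the block are given here alone. With the block *Bnip3* was not called with confinement in cPLA_2_ KO DCs (adjusted p = 0.0591). Without the 2 LPS libraries that hold almost no *Ddx3y* reads, an alternative chosen after seeing the data, 8 of the 9 genes other than *Adm* were called with LPS. Few reads were counted for *Adm* outside LPS and for *Epas1* everywhere.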
